A study of Mus musculus with 22 samples.

Results

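The LIF-STAT3 pathway genes make up 8 of the 55335 genes in the deposited expression table. They are the ligand Lif, the receptor genes Lifr, Il6st and Il6ra, the kinase genes Jak1 and Jak2, the transcription factor gene Stat3 and the feedback inhibitor gene Socs3. Members were taken by gene symbol, and each of the 8 symbols matched 1 row of the table. RNA-seq had been performed on control and H2A.Z KD mouse embryos of B6D2F1 parents to ask how gene expression depends on the histone variant H2A.Z. The 22 libraries fell into 6 groups, with 4 control libraries at each of the 2-cell, morula and blastocyst stages, and 3, 3 and 4 KD libraries, respectively. Each library pooled 15 embryos, so that differences between single embryos, or between cell lineages of a blastocyst, were not resolved.

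Embryos came from B6D2F1 females aged 8 weeks mated with B6D2F1 males. For the KD groups, a mix of 3 siRNA pairs against H2A.Z at 20 µM was injected into zygotes at 20 to 22 h after hCG, at about 10 pL per zygote. The treatment of the control embryos is not stated for these libraries, while the study's quantitative PCR used noninjected control embryos. An effect of injection and one of the siRNA therefore cannot be told apart. Embryos were harvested at 43 to 44 h after hCG as 2-cell embryos, at 78 h as morulae and at 94 h as blastocysts. The study reported that KD strongly reduced blastocyst formation, with no effect on development to the morula. How embryos were chosen for the KD blastocyst libraries is not stated. At that time a difference in developmental progress and one between embryos of equal stage therefore cannot be told apart. Values are FPKM, fragments per kilobase of transcript scaled to sequencing depth, which can be compared between genes because they are per length. In single-exon genes, FPKM multiplied by length clustered at a smallest step and at its multiples in every library. If that step is 1 fragment, the depth lay between 14.8 M and 28.7 M fragments (M, mega), with 14.8 M to 22.1 M in control blastocysts and 17.2 M to 21.2 M in KD blastocysts. This depth is an estimate, and the counts of fragments given below rest on it.

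LIF binds a receptor made of the products of Lifr and Il6st, and interleukin 6 binds the product of Il6ra together with that of Il6st. The receptor chains hold JAK kinases, which phosphorylate STAT3, and STAT3 then enters the nucleus and activates genes that include Socs3, whose product inhibits the receptor complex. In mouse embryonic stem cells this pathway sustains self-renewal, and in the embryo it is known for the maintenance of the epiblast during diapause.

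The knockdown was checked first. H2afz, the main H2A.Z gene, stood at 1244, 1236, 905 and 1178 FPKM in control 2-cell embryos and at 415, 139 and 112 FPKM after KD. In morulae it stood at 1158 to 1511 FPKM in controls and at 25.7 to 30.3 FPKM after KD, and in blastocysts at 1945 to 2656 and 53.2 to 67.2 FPKM. The groups did not overlap at any stage. H2afz fell in morulae (log2 fold change -5.41, limma adjusted p = 9.71e-08) and in blastocysts (-5.19, limma adjusted p = 3.63e-08), whereas at the 2-cell stage the log2 fold change of -2.53 did not pass after adjustment over all genes (limma adjusted p = 0.543). At that stage H2afz passed without KD replicate 1, the library with the highest KD level (-3.12, limma adjusted p = 0.000907), and in 1 fit over all 22 libraries (0.000347), within a limma adjusted p of 0.000347 to 0.861 over 13 alternatives. H2afv, which encodes the second H2A.Z protein, had a log2 fold change of -0.23 at the 2-cell stage (limma adjusted p = 0.840), where the groups overlapped, and fell in morulae (-2.93, limma adjusted p = 2.93e-06) and in blastocysts (-1.86, limma adjusted p = 7.95e-05). The difference in KD effect between blastocysts and morulae was 1.04 on the log2 scale for H2afv (limma adjusted p = 0.0207) and 0.18 for H2afz (0.709), and a difference from the 2-cell stage was not tested. How reads shared by H2afz and its processed pseudogenes were assigned is not stated, so the level of H2afz is uncertain to that extent.

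The stage labels were checked against marker genes. The 2-cell gene Zfp352 lay between 79.9 and 112 FPKM in control 2-cell embryos and at or below 2.81 FPKM in control morulae and blastocysts. The summed FPKM of the 7 trophectoderm markers, led by Krt18 in blastocysts, were 147, 138, 150 and 168 in control morulae and 1845, 2328, 1987 and 1632 in control blastocysts. In KD blastocysts that sum was 863, 1107, 1023 and 915, below every control. Of the 7 genes Krt18 and Id2 fell, Tfap2c rose and 4 did not pass, beside 19.8% of all genes that fell and 16.7% that rose. The KD effect differed from that in morulae for Id2 (limma adjusted p = 0.00089) and Tfap2c (0.0235), and that test did not pass for Krt18 (0.133). The 6 markers of inner cell mass and epiblast summed to 212, 232, 299 and 184 FPKM in control blastocysts and 152, 168, 296 and 211 after KD, and these ranges overlapped. Tdgf1 was the 1 marker of the 5 tested there that fell in blastocysts, beside 19.8% of all genes, and none rose, beside 16.7%. In morulae the sum was 202, 206, 242 and 257 FPKM in controls and 101, 101 and 161 FPKM after KD. Of the 5 tested there Nanog fell and Klf2 rose, beside 9.04% of all genes that fell and 4.23% that rose. The KD effect differed between blastocysts and morulae for Tdgf1 (limma adjusted p = 0.00133), Nanog (0.00202) and Klf2 (0.0417). The Nanog call in morulae was lost without the filter on low values (limma adjusted p = 0.0719, the highest of 13 alternatives). The Klf2 call was lost under 7 of 13 alternatives (limma adjusted p 0.00549 to 0.111), among them without control replicate 2 (0.0504) or 8 (0.0592) and without KD replicate 1 (0.0877) or 2 (0.111). The others were the replicate block (limma adjusted p = 0.0892), FPKM as deposited (0.0733) and no filter (0.0909). The 4 primitive endoderm markers summed to 10.2 to 20.3 FPKM in control blastocysts and 10.2 to 37.1 FPKM after KD, and the 1 of them that was tested, Gata6, did not pass (limma adjusted p = 0.125). Zfp352 rose in KD blastocysts, from 0.0826 to 0.772 FPKM in controls to 1.52 to 5.02 FPKM (log2 fold change 1.56, and 2.88 with a pseudocount of 0.1), and the difference from the KD effect in morulae did not pass (limma adjusted p = 0.203). No control blastocyst library reached 1 FPKM, so Zfp352 passed the filter through the KD libraries. Over its 14 alternatives the limma adjusted p of Zfp352 in blastocysts was 0.000254 to 0.0265. In bulk libraries fewer cells of a type and less RNA per cell cannot be told apart, and the part of these markers in the results below was not tested.

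Among markers of cells that could be carried over, those of cumulus, granulosa and sperm cells were low. The 7 cumulus and granulosa markers summed to at most 0.498 FPKM in any library and the 3 sperm markers to at most 1.24 FPKM. The 3 fibroblast markers, led by Thy1, summed to 0.298, 0.45, 0.643 and 0.396 FPKM in control blastocysts and 0.0692, 0.0253, 0.135 and 0.0642 FPKM after KD, with no overlap, and to at most 0.147 FPKM in earlier stages. Col1a2 was listed at 0 in every library. None of the 3 passed the filter in blastocysts, and their part in the results was not tested. Of the 3 blood markers Hba-a1 made up nearly all of the sum. Hba-a1 rose after KD in morulae, from 1.16 to 3.63 FPKM in controls to 4.23 to 7.77 FPKM, and in blastocysts, from 0.599 to 1.79 FPKM to 2.09 to 3.71 FPKM. The morula call was lost without the filter (limma adjusted p = 0.110), without KD replicate 1 (0.0719) and without KD replicate 2 (0.0525), within a limma adjusted p of 9.32e-05 to 0.110 over 13 alternatives. The blood marker Hbb-bs was listed at 0 in every library of morulae and blastocysts, and the leukocyte marker Ptprc at no more than 0.0134 FPKM. The source of the Hba-a1 signal was not tested.

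Lif (ENSMUSG00000034394.14, chr11:4257557-4272514 on GRCm38) encodes the ligand. It was listed at 0.00803, 0.0102, 0.0874 and 0 FPKM in control 2-cell embryos and at 0, 0.0178 and 0 FPKM after KD. Morulae had 0.288, 0.0964, 0.0961 and 0.125 FPKM in controls and 0.361, 0.0762 and 0.159 FPKM after KD. Blastocysts had 0.337, 0.601, 0.658 and 0.459 FPKM in controls and 0.687, 0.282, 0.329 and 0.380 FPKM after KD. Control and KD libraries overlapped at each stage, while every control blastocyst library lay above every control morula library. Lif did not reach 1 FPKM in any library, so it was below the filter on low values in every comparison. Without a filter, Lif passed between control 2-cell embryos and morulae (log2 fold change 0.16, limma adjusted p = 0.0262) and between control morulae and blastocysts (0.37, limma adjusted p = 0.0124), and it did not pass between KD and control at any stage (limma adjusted p = 0.846, 0.687 and 0.692).

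Lifr (ENSMUSG00000054263.12, chr15:7090614-7197489) encodes the LIF receptor chain and had the lowest mean of the members in control and KD blastocysts. Control 2-cell embryos had 0.0324, 0.0559, 0.0531 and 0.0691 FPKM, and KD 2-cell embryos 0.0286, 0.0485 and 0.0238 FPKM. Morulae had 0.00278, 0, 0.00623 and 0.00892 FPKM in controls and 0.00977, 0.0134 and 0.0124 FPKM after KD. Blastocysts had 0.0690, 0.0738, 0.0351 and 0.0382 FPKM in controls and 0.00052, 0.00403, 0.0148 and 0.00639 FPKM after KD. The groups overlapped at the 2-cell stage and did not overlap in morulae, where KD libraries were the higher ones, or in blastocysts, where KD libraries were the lower ones. Over the annotated exons of Lifr, these values come to about 6.46 to 16.4 fragments in control blastocyst libraries and 0.119 to 3.19 in KD blastocyst libraries, and to at most 3.74 in any morula library. Lifr was below the filter in every comparison. Without a filter, Lifr passed in blastocysts (log2 fold change -0.07, limma adjusted p = 0.0341) and not in morulae (0.01, limma adjusted p = 0.439), and its KD effect differed between these stages (-0.08, limma adjusted p = 0.0328). At so few fragments per library these values are near the limit of what the depth resolves.

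Il6st (ENSMUSG00000021756.12, chr13:112464070-112510086) encodes gp130, the signalling chain shared by the interleukin 6 family. It stood at 2.12, 2.12, 1.95 and 1.94 FPKM in control 2-cell embryos and at 1.55, 1.94 and 1.99 FPKM after KD. Morulae had 0.0162, 0.00252, 0.0234 and 0.0153 FPKM in controls and 0.0193, 0.0168 and 0.0178 FPKM after KD. Blastocysts had 0.140, 0.268, 0.135 and 0.109 FPKM in controls and 0.0536, 0.0209, 0.0783 and 0.0567 FPKM after KD. The highest levels of Il6st were thus at the 2-cell stage, and control blastocysts lay above all morulae. Control and KD blastocysts did not overlap, and the mean was 3.11-fold lower after KD, at an estimated 22.2 to 44.2 fragments per control library and 4.56 to 17.4 per KD library. The log2 fold change of KD over control at the 2-cell stage was -0.06 ± 0.18 (SE) and did not pass (limma adjusted p = 0.965). Il6st was below the filter in morulae and blastocysts, and without a filter it did not pass in blastocysts (limma adjusted p = 0.0719).

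Groups that did not overlap were thus found for 1 of the 4 members below the filter in morulae and for 2 of the 5 below it in blastocysts (Lifr in morulae, Lifr and Il6st in blastocysts). Among all genes that were below the filter and above 0 in at least 1 library, 8.81% did not overlap in morulae and 9.25% in blastocysts. At the 2-cell stage none of the 2 members below the filter, Lif and Lifr, was without overlap, beside 3.57% of all such genes. With so few members these counts are descriptions.

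Il6ra (ENSMUSG00000027947.11, chr3:89864059-89913196) encodes the receptor chain for interleukin 6. It had 1.21, 0.910, 1.12 and 0.598 FPKM in control 2-cell embryos and 1.29, 1.39 and 0.685 FPKM after KD. Morulae had 0.270, 0.168, 0.126 and 0.228 FPKM in controls and 0.222, 0.216 and 0.182 FPKM after KD. Blastocysts had 0.0937, 0.144, 0.0594 and 0.0473 FPKM in controls and 0.0750, 0.182, 0.248 and 0.119 FPKM after KD. Control and KD libraries overlapped at each stage. At the 2-cell stage, where Il6ra was tested, the log2 fold change was 0.14 ± 0.21 (SE, limma adjusted p = 0.925). Every control morula library was below every control 2-cell library. The exons of Il6ra share 242 bases with those of the antisense gene Gm42809, which the library type cannot separate by strand. Gm42809 had at most 0.344 FPKM in any library, and Il6ra at most 0.270 FPKM in morulae and blastocysts. The part of Gm42809 in these values was not tested.

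Jak1 (ENSMUSG00000028530.14, chr4:101152367-101265282) encodes the main kinase held by gp130. It had 9.55, 9.35, 8.02 and 7.67 FPKM in control 2-cell embryos and 11.3, 8.64 and 8.16 FPKM after KD. Morulae had 5.35, 4.85, 2.58 and 3.33 FPKM in controls and 5.13, 4.83 and 4.68 FPKM after KD. Blastocysts had 5.01, 7.01, 5.45 and 6.46 FPKM in controls and 3.60, 4.41, 5.45 and 6.94 FPKM after KD. Jak1 was present in all 22 libraries, and control and KD libraries overlapped at each stage. The log2 fold change of KD over control was 0.16 ± 0.19 (SE) at the 2-cell stage, 0.37 ± 0.19 for morulae and -0.21 ± 0.19 for blastocysts, and none passed (limma adjusted p = 0.895, 0.223 and 0.413).

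Jak2 (ENSMUSG00000024789.13, chr19:29251828-29313080) encodes a second kinase of these receptors. Its level was 87.4, 116, 64.0 and 76.1 FPKM in control 2-cell embryos and 111, 109 and 104 FPKM after KD. Morulae had 1.16, 0.638, 0.902 and 0.764 FPKM in controls and 1.90, 2.37 and 1.56 FPKM after KD. Blastocysts had 1.09, 1.72, 0.955 and 1.10 FPKM in controls and 1.32, 0.971, 2.19 and 1.14 FPKM after KD. At the 2-cell stage Jak2 was the most abundant member by far, and in morulae the 3 KD libraries lay above the 4 controls. At the 2-cell stage the log2 fold change of KD over control was 0.43 ± 0.21 (SE) and did not pass (limma adjusted p = 0.828). Jak2 rose in KD morulae, with a mean 2.24-fold that of controls and a log2 fold change of 0.73 ± 0.16 (SE, limma adjusted p = 0.0161). Since that change is under 1 on the log2 scale, Jak2 did not meet the threshold for a differentially expressed gene.

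The Jak2 call in morulae was close to the threshold. Only 1 of the 4 control libraries reached 1 FPKM, so the gene passed the filter through the KD libraries. The call was lost without the filter (limma adjusted p = 0.0596), without KD replicate 1 (0.0503) and without KD replicate 2 (0.0725), and over 13 alternatives the limma adjusted p ranged from 0.0153 to 0.0725. With a pseudocount of 0.1 the log2 fold change was 1.21. Jak2 was thus 1 of the 4 members tested in morulae that rose, beside 4.23% of all genes tested that rose, and 0 of the 4 fell, beside 9.04%. Since Jak2 passed the filter through the group where it is high, these counts are descriptions. In blastocysts the log2 fold change of Jak2 was 0.10 ± 0.18 (SE, limma adjusted p = 0.686). The test of the difference in KD effect on Jak2 between blastocysts and morulae did not pass (log2 difference -0.66, limma adjusted p = 0.0692), although it did without control blastocyst replicate 5 (0.0495) or without KD blastocyst replicate 5 (0.0339), within a limma adjusted p of 0.0339 to 0.173 over 21 alternatives. Of the 4 members in that test 0 passed, beside 11.7% of all genes tested. At an unadjusted limma p under 0.05 there were 2 of the 4 members, Jak1 and Jak2, beside 3480 of all 12727 genes.

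**Figure D1:**
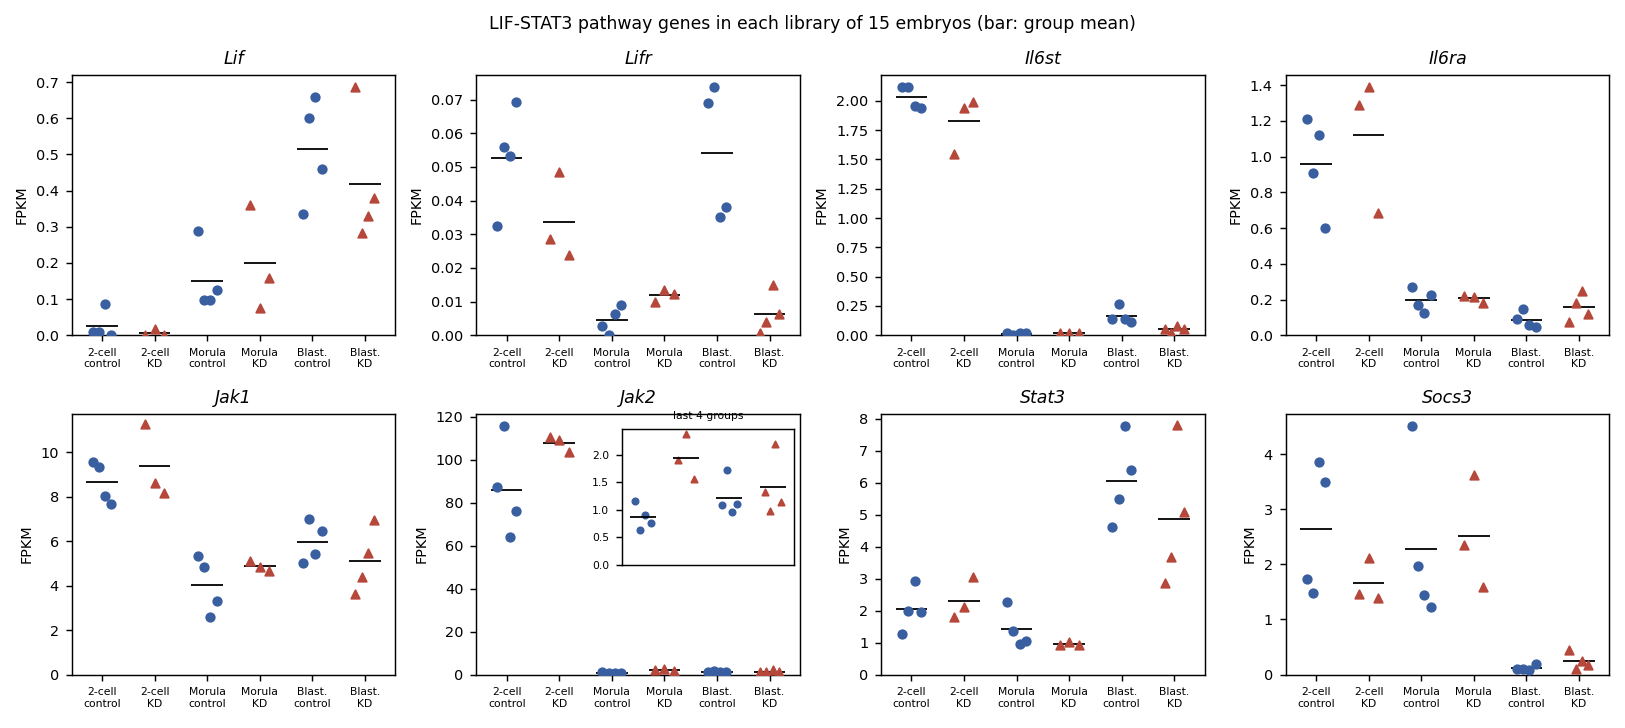
FPKM of the 8 members in each library (points, linear axes from 0), by stage and condition, with circles for control, triangles for KD and bars for group means; the inset repeats Jak2 in morulae and blastocysts, control before KD at each stage. Jak2 lay between 64.0 and 116 FPKM in control 2-cell embryos and at or below 2.37 FPKM in later stages.

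Stat3 (ENSMUSG00000004040.16, chr11:100885098-100939540) encodes the transcription factor that the kinases activate. Control 2-cell embryos had 1.28, 1.98, 2.91 and 1.96 FPKM, and KD 2-cell embryos 1.79, 2.10 and 3.04 FPKM. Morulae had 2.28, 1.36, 0.953 and 1.04 FPKM in controls and 0.927, 1.02 and 0.910 FPKM after KD. Blastocysts had 4.61, 5.48, 7.78 and 6.39 FPKM in controls and 2.85, 3.68, 7.81 and 5.07 FPKM after KD. Control and KD libraries overlapped at each stage, and the highest blastocyst value of all was a KD library. The log2 fold change of KD over control was 0.18 ± 0.22 (SE), -0.20 ± 0.17 and -0.32 ± 0.22 in the order of stages, and none passed (limma adjusted p = 0.897, 0.467 and 0.280). Exons of Stat3 and of its neighbour Stat5a on the other strand share 72 bases.

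Socs3 (ENSMUSG00000053113.3, chr11:117966079-117970047) encodes the feedback inhibitor and is a direct target of STAT3. It had 1.74, 1.49, 3.85 and 3.49 FPKM in control 2-cell embryos and 1.47, 2.11 and 1.39 FPKM after KD. Morulae had 4.51, 1.97, 1.44 and 1.23 FPKM in controls and 2.35, 3.62 and 1.59 FPKM after KD. Blastocysts had 0.0934, 0.104, 0.0909 and 0.197 FPKM in controls and 0.452, 0.101, 0.238 and 0.177 FPKM after KD. Levels were high up to the morula and low in every blastocyst library, and control and KD libraries overlapped at each stage. The log2 fold change of KD over control was -0.35 ± 0.25 (SE) in 2-cell embryos and 0.25 ± 0.28 in morulae, without passing (limma adjusted p = 0.844 and 0.582), and Socs3 was below the filter in blastocysts.

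Over the 3 comparisons of KD with control, the members tested numbered 6, 4 and 3. At the 2-cell stage 0 of 6 rose and 0 fell, as did 0% of all 12160 genes tested in either direction, with 352 higher and 349 lower at an unadjusted limma p under 0.05. In blastocysts 0 of the 3 members tested, Jak1, Jak2 and Stat3, rose or fell, beside 16.7% of all genes that rose and 19.8% that fell. At an unadjusted limma p under 0.05 there were also 0 of these 3, beside 2573 higher and 2866 lower of all 11828 genes, and 0 of the 6 at the 2-cell stage. The median log2 fold change of the members tested was 0.15, 0.31 and -0.21 in the order of stages, beside 0.00, 0.02 and 0.00 over all genes tested.

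**Figure D2:**
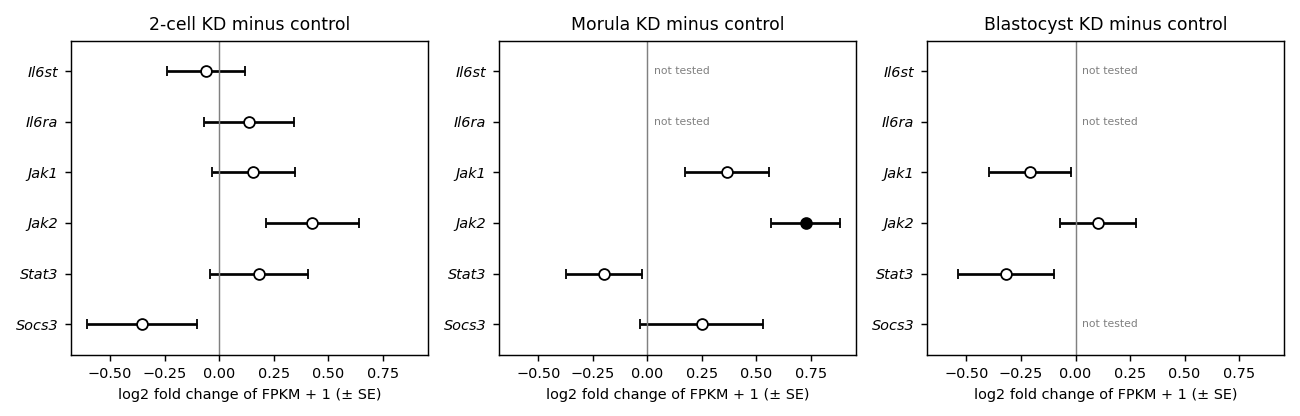
Log2 fold change of KD over control for the members tested at each stage, with bars for 1 SE; a filled point passed the test. Jak2 in morulae, at 0.73, was the 1 filled point.

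The members were also followed through development in control embryos. From the 2-cell stage to the morula, 3 of the 5 members tested fell and 0 rose, while 40.3% of all genes tested fell and 43% rose. Jak2 fell from a mean of 85.8 ± 22.1 (SD, n = 4) to 0.867 ± 0.224 FPKM (log2 fold change -5.50, limma adjusted p = 6.8e-10), which is 99.0-fold. Il6st fell from 2.03 ± 0.0988 (SD, n = 4) to 0.0143 ± 0.00867 FPKM, a 142-fold difference of means that the pseudocount turns into a log2 fold change of -1.55 (limma adjusted p = 1.13e-07) and that was -4.19 with a pseudocount of 0.1. No control morula library reached 1 FPKM of Il6st, and only 1 did so for Jak2, so both passed the filter through the 2-cell libraries and the count of members that fell is a description. Jak1 fell from 8.65 ± 0.944 (SD, n = 4) to 4.03 ± 1.29 FPKM (log2 fold change -0.98, limma adjusted p = 0.000547). Stat3 and Socs3 did not pass (limma adjusted p = 0.0936 and 0.506), although Stat3 did without control 2-cell replicate 1 (0.0282), without control morula replicate 1 (0.0381) and in 1 fit over all 22 libraries (0.036), within a limma adjusted p of 0.0282 to 0.277 over 12 alternatives.

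From morula to blastocyst, Stat3 and Socs3 went in opposite directions in control embryos. Stat3 rose from a mean of 1.41 ± 0.608 (SD, n = 4) to 6.07 ± 1.35 FPKM, 4.30-fold, with a log2 fold change of 1.50 (limma adjusted p = 2.66e-05). Socs3 fell from 2.29 ± 1.52 (SD, n = 4) to 0.121 ± 0.0509 FPKM, 18.8-fold, with a log2 fold change of -1.47 (limma adjusted p = 0.000129) that was -3.32 with a pseudocount of 0.1. Jak1 and Jak2 did not pass (limma adjusted p = 0.0702 and 0.251), although Jak1 did in 1 fit over all 22 libraries (0.0218), within a limma adjusted p of 0.0218 to 0.217 over 12 alternatives. Of the 4 members tested 1 rose, beside 27.6% of all genes, and 1 fell, beside 28.8%. Socs3 passed the filter through the morula libraries, as no control blastocyst library reached 1 FPKM, so these counts are descriptions. The receptor genes Lifr and Il6st, both below the filter, were 12.1-fold and 11.4-fold higher in mean FPKM in control blastocysts than in control morulae. Without a filter both passed (limma adjusted p = 0.0147 and 0.00972), beside 23.4% of all genes.

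In KD embryos the same pair of genes changed between these stages. Stat3 rose from 0.952 ± 0.0588 (SD, n = 3) to 4.85 ± 2.17 FPKM (n = 4), with a log2 fold change of 1.38 (limma adjusted p = 0.000795). Socs3 fell from 2.52 ± 1.02 (SD, n = 3) to 0.242 ± 0.151 FPKM (n = 4), with a log2 fold change of -1.55 (limma adjusted p = 0.000223) that was -3.12 with a pseudocount of 0.1. Jak1 and Jak2 did not pass (limma adjusted p = 0.615 and 0.0999), although Jak2 did without KD blastocyst replicate 5 (0.0353), within a limma adjusted p of 0.0353 to 0.311 over 11 alternatives. Among the 4 members tested 1 rose, beside 19.2% of all genes, and 1 fell, beside 18.2%. Socs3 passed the filter through the 3 KD morula libraries alone, and Stat3 through the 4 KD blastocyst libraries, as 1 KD morula library reached 1 FPKM, so these counts are descriptions. Without any 1 of the 3 KD morula libraries Socs3 was below the filter and 1 member passed. Lifr was at a mean of 0.0119 FPKM in KD morulae and 0.00644 FPKM in KD blastocysts, and these groups overlapped. The mean FPKM of Il6st was 2.92-fold higher in KD blastocysts, at 0.0209 to 0.0783 FPKM against 0.0168 to 0.0193 FPKM in KD morulae, without overlap. Without a filter this did not pass (log2 fold change 0.04, limma adjusted p = 0.189), and in estimated fragments, 4.56 to 17.4 against 4.29 to 5.53, the groups overlapped.

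The order of the members by mean FPKM changed with the stage. In control 2-cell embryos Jak2 came first at 85.8 FPKM and Jak1 next at 8.65 FPKM, followed by Socs3 (2.64 FPKM), Stat3 and Il6st (both 2.03 FPKM), whose libraries overlapped, and then by Il6ra, Lifr and Lif. In control morulae Jak1 led at 4.03 FPKM, with Socs3 at 2.29, Stat3 at 1.41 and Jak2 at 0.867 FPKM, each overlapping its neighbour in that order. In control blastocysts Stat3 (6.07 FPKM) and Jak1 (5.98 FPKM) overlapped at the top, Jak2 followed at 1.22 FPKM, and Lif, Il6st, Socs3, Il6ra and Lifr were all below 1 FPKM. In KD blastocysts Jak1 (5.10 FPKM) and Stat3 (4.85 FPKM) were again first and Lifr last.

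Other genes of the pathway were read from lists of fixed composition. Of 9 other ligand genes of the interleukin 6 family, 2 were tested in morulae, where none passed by limma, beside 4.23% of all genes that rose and 9.04% that fell. At an unadjusted p under 0.05 there was 1 of the 2, beside 1409 higher and 1943 lower of all 10989 genes. Of these genes Osm passed the filter through the control morulae, as no KD morula library reached 1 FPKM. These morula counts are therefore descriptions. In blastocysts 3 were tested, of which 1 rose and 1 fell, beside 16.7% of all genes that rose and 19.8% that fell, with a median log2 fold change of 0.14 beside 0.00 over all genes tested. Il6, the ligand of the Il6ra product, had 6.10, 3.94, 3.13 and 4.08 FPKM in control blastocysts and 1.42, 1.99, 1.76 and 0.680 FPKM after KD. Every KD library was below every control, and Il6 fell with a log2 fold change of -1.11 ± 0.24 (SE, limma adjusted p = 0.00412). Ctf2, a cardiotrophin gene, had 0.406 to 0.687 FPKM in controls and 0.894 to 1.59 FPKM after KD and rose (log2 fold change 0.57, limma adjusted p = 0.00997), having passed the filter through the KD libraries. The count of 1 ligand gene that rose in blastocysts is therefore a description. With a pseudocount of 0.1 the log2 fold change of Ctf2 was 1.13. The KD effect differed between blastocysts and morulae for Ctf2 (log2 difference 0.80, limma adjusted p = 0.0314), whereas that test did not pass for Il6 (-0.84, limma adjusted p = 0.107), and of the 4 ligand genes in it 2 passed, beside 11.7% of all genes. The other was Osm (0.71, limma adjusted p = 0.0341), chosen after its values were seen, with a mean of 1.44 FPKM in control and 0.676 FPKM in KD morulae and 0.242 and 0.482 FPKM in blastocysts. Among these libraries the 4 control morulae alone reached 1 FPKM of Osm, so it passed the filter through the group where it is high. The count of 2 of the 4 ligand genes is therefore a description. None of the 5 other receptor genes, Cntfr, Osmr, Il11ra1, Il27ra and Il31ra, passed the filter in any comparison.

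Among 8 other JAK and STAT genes, 3 were tested in morulae, where 1 fell, beside 9.04% of all genes, and 3 in blastocysts, where 2 fell and none rose, beside 19.8% of all genes that fell and 16.7% that rose. Stat6, the transcription factor gene of interleukin 4 signalling, had 3.90, 2.48, 2.04 and 2.26 FPKM in control morulae and 0.606, 0.501 and 0.441 FPKM after KD. In blastocysts it had 5.26, 6.43, 8.92 and 7.35 FPKM in controls and 0.721, 2.16, 2.62 and 2.56 FPKM after KD. The groups were apart at both stages, and Stat6 fell in morulae (log2 fold change -1.18 ± 0.16, SE, limma adjusted p = 0.00314) and in blastocysts (-1.44 ± 0.23, limma adjusted p = 0.000597). In morulae Stat6 passed the filter through the control libraries, as no KD library reached 1 FPKM, and with a pseudocount of 0.1 its change there was -2.02. The count of 1 gene of this list that fell in morulae is therefore a description. The median log2 fold change of the JAK and STAT genes tested was -0.55 in morulae and -0.78 in blastocysts, beside 0.02 and 0.00 over all genes. Each median is over 3 genes, and that in blastocysts is the value of Tyk2. In morulae 3 of the 3 had an unadjusted limma p under 0.05, beside 1409 higher and 1943 lower of all 10989 genes. Stat5a, like Stat6, passed the filter there through the controls, as 1 of its KD libraries reached 1 FPKM. The morula count and median are therefore descriptions. In blastocysts 2 of the 3 did, beside 2573 higher and 2866 lower of all 11828 genes. Tyk2, a further JAK kinase gene, had 1.25, 4.0, 1.61 and 2.45 FPKM in control blastocysts and 1.08, 0.488, 1.2 and 0.674 FPKM after KD. It fell (log2 fold change -0.78, limma adjusted p = 0.0201), but the call was lost without the filter (limma adjusted p = 0.0944), without control replicate 4 (0.0502) or without KD replicate 4 (0.0517) or 6 (0.0524), within a limma adjusted p of 0.00446 to 0.0944 over 14 alternatives. Only 2 KD libraries reached 1 FPKM, so Tyk2 passed the filter through the controls. The counts of 2 genes of this list in blastocysts, with and without adjustment, and the median there are therefore descriptions. With a pseudocount of 0.1 its log2 fold change was -1.27. None of the 4 JAK and STAT genes in the test of the difference between stages passed by limma, beside 11.7% of all genes. Of the 4, 1 had an unadjusted limma p under 0.05, beside 3480 of all 12727 genes. For Tyk2 the limma adjusted p was 0.564.

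Of 15 genes of inhibitors and phosphatases, 11 were tested at each of these stages. In morulae 0 passed by limma, beside 4.23% of all genes that rose and 9.04% that fell, and 0 had an unadjusted p under 0.05, beside 1409 higher and 1943 lower of all 10989 genes. In blastocysts 3 rose and 1 fell, and 6 had an unadjusted p under 0.05, beside 2573 higher and 2866 lower of all 11828 genes, with a median log2 fold change of 0.38 beside 0.00 over all genes. The 4 of 11 genes called in blastocysts were near the share of all genes, of which 16.7% rose and 19.8% fell. Ptpn2, a phosphatase gene that acts on JAK kinases and STAT proteins, had 66.2, 59.9, 66.3 and 62.6 FPKM in control blastocysts and 107, 109, 102 and 125 FPKM after KD. All KD libraries were above all controls, and Ptpn2 rose with a log2 fold change of 0.79 ± 0.16 (SE, limma adjusted p = 0.00224). Pias4, an inhibitor of STAT proteins, had 0.693 to 2.23 FPKM in controls and 2.64 to 6.94 FPKM after KD and rose (log2 fold change 0.88, limma adjusted p = 0.014), a call lost without the filter (limma adjusted p = 0.0715, the highest of 14 alternatives). Socs2 rose (0.69, limma adjusted p = 0.0302) and Socs6 fell (-0.76, limma adjusted p = 0.0241), but their groups overlapped. The Socs2 call was lost under 6 of 14 alternatives (limma adjusted p 0.016 to 0.106), among them without control replicate 1 (0.0654) or 4 (0.10) and without KD replicate 4 (0.0634) or 6 (0.0839). The Socs6 call was lost under 3 of 14 (0.0039 to 0.0975), without the filter, without control replicate 6 (0.0537) and without KD replicate 6 (0.0728). The test of the difference between stages passed for 0 of the 11 genes by limma, beside 11.7% of all genes. Of the 11, 2 had an unadjusted limma p under 0.05, beside 3480 of all 12727 genes. The limma adjusted p was 0.267 for Ptpn2, 0.350 for Pias4, 0.514 for Socs2 and 0.329 for Socs6.

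Of 15 genes known as STAT3 or LIF targets in mouse embryonic stem cells, 11 were tested in morulae and 9 in blastocysts. In morulae none passed by limma, beside 4.23% of all genes that rose and 9.04% that fell. At an unadjusted limma p under 0.05 there were 2 of the 11, beside 1409 higher and 1943 lower of all 10989 genes. In blastocysts there were 6 of the 9, beside 2573 higher and 2866 lower of all 11828 genes. After adjustment 4 rose in blastocysts and none fell, beside 16.7% of all genes that rose and 19.8% that fell. Calls of 2 of the 4, Klf4 and Pim1, were lost under several alternatives given below. Their median log2 fold change in blastocysts was 0.57, beside 0.00 over all genes tested. Pim3, a kinase gene, had 0.490, 1.24, 1.03 and 1.51 FPKM in control blastocysts and 3.49, 1.93, 7.26 and 3.00 FPKM after KD, with no overlap (log2 fold change 1.17 ± 0.26, SE, limma adjusted p = 0.00419). Pramel7, a gene linked to naive pluripotency, had 221, 237, 218 and 208 FPKM in controls and 418, 305, 342 and 370 FPKM after KD, also with no overlap (log2 fold change 0.69 ± 0.17, SE, limma adjusted p = 0.00628). Klf4 (log2 fold change 0.61, limma adjusted p = 0.031) and Pim1 (0.57, limma adjusted p = 0.0249) rose too, and the groups of Pim1 overlapped while those of Klf4 did not. The Klf4 call was lost under 7 of 14 alternatives (limma adjusted p 0.0113 to 0.0958), among them without control replicate 4 (0.0958), 5 (0.0603) or 6 (0.0594) and without KD replicate 5 (0.0706) or 6 (0.0685). The Pim1 call was lost under 4 of 14 (0.0164 to 0.0661), without the filter (0.0559), without control replicate 1 (0.0654) or 6 (0.0661) and without KD replicate 5 (0.058). Of the 11 targets in the test of the difference between stages 1 passed, near the 11.7% of all genes. It was Pim1 (log2 difference 0.79, limma adjusted p = 0.0436), whereas Pim3 (0.0945), Pramel7 (0.0664) and Klf4 (0.313) did not.

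**Figure D3:**
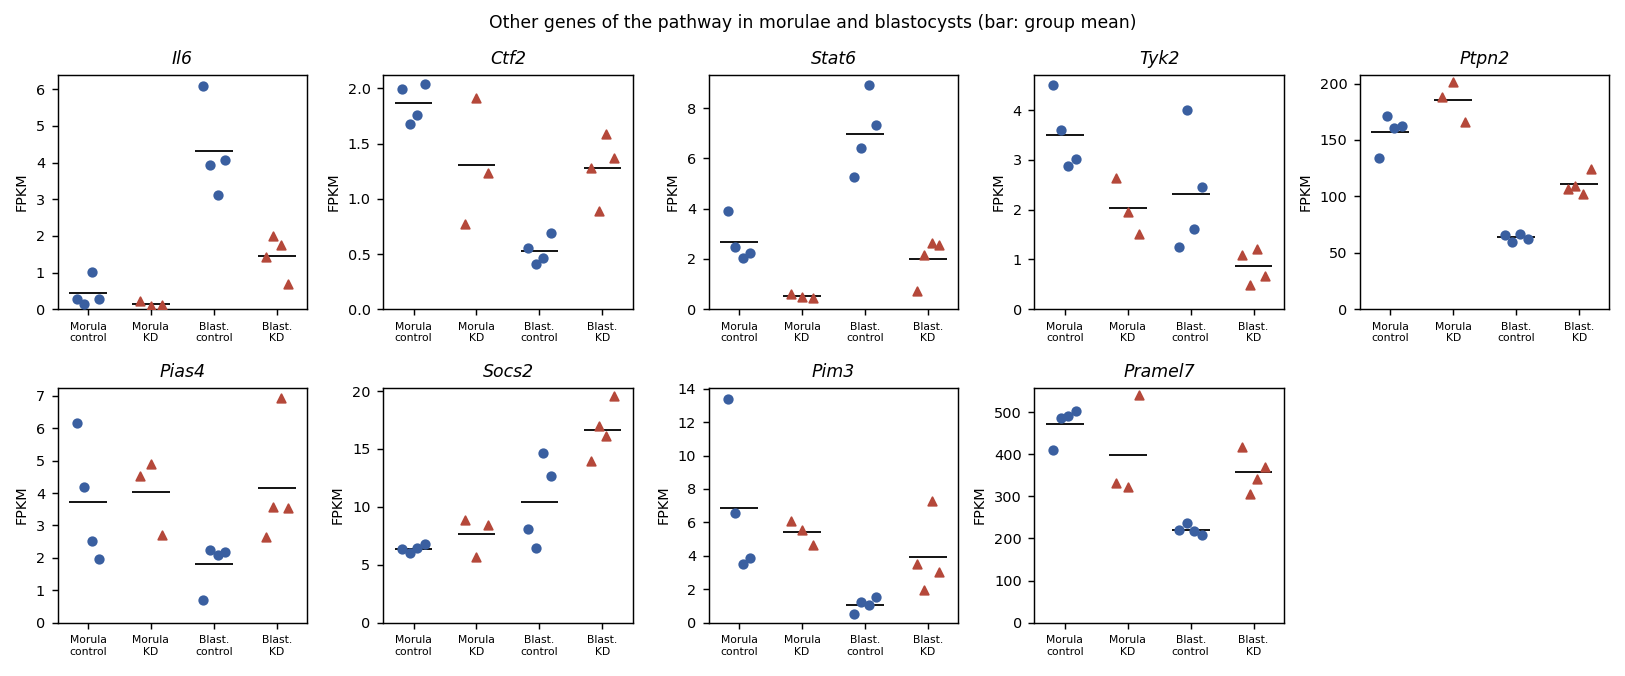
FPKM of 9 other genes of the pathway in each library (points, linear axes from 0) of control and KD morulae and blastocysts, with bars for group means. In blastocysts Il6 and Stat6 of KD libraries lie below every control library, and Ptpn2, Pim3 and Pramel7 above.

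The genes most like Stat3, Il6st and Lifr over the 22 libraries were found by Pearson correlation of log2(FPKM + 1) among 15697 genes, as a description. For Stat3 they were Dpy19l1 (r = 0.937), Abhd12 (0.933) and Slc44a4 (0.931). For Il6st they were Ccdc69 (r = 0.995), Dcp2 (0.995) and Plekha8 (0.995). Il6st itself lay at 1.55 to 2.12 FPKM in 2-cell embryos and at no more than 0.268 FPKM later, so that its libraries form separate clusters. For Lifr, whose values are all near 0, they were Cryl1 (r = 0.860), Tfpi (0.853) and Tpmt (0.852).

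The start regions of the members were searched for the STAT palindrome TTCNNNGAA, which reads the same on both strands, because Socs3 is a known STAT3 target and its level went in the direction opposite to that of Stat3 between morula and blastocyst. Of the 9 listed STAT3 or LIF targets tested between these stages in controls, 7 fell and 2 rose, beside 28.8% and 27.6% of all genes. In KD embryos 11 were tested, of which 3 fell and 2 rose, beside 18.2% and 19.2% of all genes. Of the 9 RefSeq windows of 300 bases that cover the 8 members, 1 held the motif, beside 8.30% of 32851 windows in all. It was that of Socs3, at chr11:117969317-117969616 on the minus strand of GRCm38, printed with the match in capitals. This window lies inside the span that GENCODE gives for Socs3. A match is a description of the sequence, and no match says only that these letters are not in that window.
Socs3: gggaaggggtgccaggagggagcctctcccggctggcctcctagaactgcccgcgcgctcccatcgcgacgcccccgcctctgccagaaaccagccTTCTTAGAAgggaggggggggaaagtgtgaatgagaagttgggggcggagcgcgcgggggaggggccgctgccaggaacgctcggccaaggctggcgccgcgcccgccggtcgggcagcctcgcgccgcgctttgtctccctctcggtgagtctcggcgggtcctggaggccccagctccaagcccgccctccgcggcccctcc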

How the data were processed

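Alignment was to mm10, by STAR, and the authors deposited FPKM per gene from StringTie 2.1.4, scaled by them to transcript length and sequencing depth. Their DESeq2 1.30.1 analysis of counts was not used here. The 22 columns were matched to samples by title. Libraries had been made with Smart-seq2 from polyadenylated RNA, without strand. Of 55335 genes, 54587 matched GENCODE M21 by versioned identifier, as did the 8 members. FPKM were divided by a median-of-ratios factor per library of a comparison (0.895 to 1.20 over all comparisons), and genes with at least 1 FPKM in at least 3 libraries were tested, after log2 transformation with 1 as the pseudocount, with limma 3.58.1 in R 4.3.3 (lmFit, eBayes with trend), with Benjamini-Hochberg adjustment over all genes tested. Log2 fold changes are on the log2(FPKM + 1) scale, which understates the change of low genes. A gene rose or fell at an adjusted p under 0.05, and was differentially expressed when its absolute log2 fold change was also above 1. The difference of the KD effect between stages was an interaction term.

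The members and lists were chosen with earlier results of these data known. One gene of the lists is not reported here, and the counts and medians of its list are given without it. Named were all members, H2afz, H2afv and, from each list, up to 4 genes with the largest change among those that passed in morulae or blastocysts. Also named were Osm, the 5 other receptor genes, the markers Gata6, Thy1, Col1a2, Hbb-bs and Ptprc, and genes overlapping or resembling a member. Figures and depth used Python 3.11.15, pandas 2.3.3, numpy 2.4.6 and matplotlib 3.10.9. Depth was estimated on 13500 genes with a single exon and 300 bases or more, and fragments per member from the merged length of its exons, which is rough where isoforms differ in length. Alternatives were another pseudocount, no filter, no scaling, each library left out, 1 fit over all libraries, a replicate block and the range of replicate numbers as a covariate. The scripts were first tested on simulated data. The study's methods say that its experiments other than ULI-NChIP-seq were repeated, and not whether libraries of a group came from separate collections of embryos, so p-values may measure only the spread between these libraries, which may be technical. No pair of libraries of a group shared more than 0.00870% of its values above 0.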

Additional observations from a re-analysis of the deposited data

Results flagged for a closer look

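Each member was examined in the 4 groups of 4 libraries (32 sets of values) for a library far from the others by Dixon's criterion, which chance meets in about 1 in 20 groups. Lif in control 2-cell embryos was 0.0874 FPKM in replicate 4, against at most 0.0102 FPKM in the others. Lif in control morulae was 0.288 FPKM in replicate 1, against at most 0.125 FPKM in the others. Socs3 in control blastocysts was 0.197 FPKM in replicate 6, against at most 0.104 FPKM in the others.

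For Lifr the libraries of the later stages were ordered in opposite ways. Every KD morula library lay above every control morula library, with a difference of means of 0.00739 FPKM, and every KD blastocyst library lay below every control, with a difference of -0.0476 FPKM. Lifr was below the filter on low values, so this difference between stages was not tested with the filter, and without it the difference passed (log2 difference -0.08, limma adjusted p = 0.0328), as did the change in blastocysts (-0.07, limma adjusted p = 0.0341), whereas the change in morulae did not (0.01, limma adjusted p = 0.439). These levels come to an estimated 16.4 fragments at most in any blastocyst library and 3.74 in any morula library, so no direction is drawn for morulae.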

How the results depend on the processing

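Counts of members that passed moved as follows. Without a filter on low FPKM, 0 members passed between KD and control morulae, 1 between KD and control blastocysts, 6 between control 2-cell embryos and morulae, 6 between control morulae and blastocysts and 1 in the difference of the KD effect between stages, beside 1.25%, 11.2%, 44.2%, 23.4% and 2.66% of all genes; more genes are tested there, Lifr is the member in blastocysts, and Lif, Lifr and Il6ra passed in addition between control 2-cell embryos and morulae and Lif, Lifr, Il6st and Il6ra between control morulae and blastocysts. With 1 fit over all 22 libraries, 5 members passed between control 2-cell embryos and morulae, beside 12609 of all genes. With each library left out in turn, 0 to 1 members passed between KD and control morulae, 3 to 4 between control 2-cell embryos and morulae, 1 to 3 between KD morulae and KD blastocysts (1 without any 1 KD morula library, where Socs3 drops below the filter, and 3 without KD blastocyst replicate 5), and 0 to 1 in the difference between stages. Of all genes, 551 to 1744, 10850 to 11121, 2830 to 4381 and 962 to 1722 passed, in that order.

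Directions turned only for changes that passed nowhere: Il6st at the 2-cell stage without KD replicate 1 (0.0071; -0.12 to 0.0071 with each library left out), Jak2 in blastocysts without KD replicate 5 (-0.0052; up to 0.19), Jak1 between KD morulae and KD blastocysts on FPKM as deposited (0.024), and, for the difference between stages, Stat3 without KD blastocyst replicate 1 (0.0084; down to -0.31) and Socs3 with a pseudocount of 0.1 (0.15), without control morula replicate 8 (0.00011) or without KD morula replicate 2 (0.10; down to -0.37); the cause was not tested.

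The replicate numbers were not shown to pair libraries 1 to 1: deviations of same-numbered libraries correlated at 0.21, 0.015 and 0.21 in 2-cell embryos, 0.18 and 0.096 in morulae and 0.087, -0.11, 0.36 and 0.00082 in blastocysts. With the replicate block, 0, 1 and 0 members passed at the 3 stages, as without it, 0, 1624 and 4571 genes passed at these stages and 1092 in the difference between stages, and the difference between stages turned for Stat3 (0.050) and Socs3 (0.033). Low and high numbers did group at the 2-cell stage, except for KD 2 (-0.021 to 0.015), and in morulae. In 2-cell embryos controls 1 and 2 correlated with KD 1 at 0.21 and 0.20 and controls 4 and 5 with KD 4 at 0.21 and 0.16, while the other pairs of KD 1 and KD 4 lay at -0.24 to -0.17. In morulae controls 1 and 2 correlated with KD 1 and 2 at 0.096 to 0.18 and controls 7 and 8 with KD 6 at 0.19 and 0.34, while pairs across these ranges lay at -0.27 to -0.094. Blastocyst pairs of unlike numbers lay between -0.38 (control 1 with KD 5) and 0.40 (control 1 with KD 4), with -0.34 for control 5 with KD 4. With the range of numbers as a covariate 0, 1 and 0 members passed at the 3 stages, with 0, 2038 and 4520 genes, and 0 members and 2008 genes in the difference between stages, against 1495; Jak2 in morulae was 0.71 (limma adjusted p = 0.0153). What the ranges stand for is not stated.

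Over all genes, 33 passed at the 2-cell stage with 1 fit over all libraries, 1 without control replicate 2 and 3 without KD replicate 1, against 0. In morulae 412 passed without the filter and 551 to 1744 with a library left out, against 1458 (910 and 855 without control replicate 7 and 8, 579 and 551 without KD replicate 1 and 2). Without the filter 988 passed in the difference between stages, against 1495, and 962 without KD morula replicate 1; 2830 passed between KD morulae and KD blastocysts without KD morula replicate 2, against 4259. On FPKM as deposited the median of all genes moved by -0.10 in morulae, 0.16 between KD morulae and KD blastocysts and 0.12 in the difference between stages, and the share of calls that were higher went from 31.9% to 15.3% in morulae and from 51.3% to 67.4% between KD morulae and KD blastocysts. Lif, Lifr and Il6st in later stages rest on few fragments, and the depth limits what can be said of them.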
